A study of Homo sapiens with 32 samples.

Results

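The genes described here are 10 that encode subunits of the human SWI/SNF (BAF) chromatin remodelling complexes: SMARCA4, SMARCA2, SMARCC1, SMARCC2, SMARCD1, ARID1A, ARID1B, ARID2, PBRM1 and BICRA. They were chosen by name, and their data are the m6A peaks that overlap each gene body in the RefSeq table of GRCh38.p14. They are 10 of 19154 genes with a peak in at least 1 of 12 peak lists.

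SWI/SNF complexes use the energy of ATP to slide or evict nucleosomes, and they open enhancers and promoters for transcription. Each complex is built around a single ATPase, SMARCA4 or its paralog SMARCA2, and a shared core, and further subunits make it canonical BAF (ARID1A or ARID1B), PBAF (ARID2 and PBRM1) or non-canonical BAF (BICRA). Genes of the family are recurrently mutated in cancer, and ARID1A is known for inactivating mutations in ovarian tumours. N6-methyladenosine (m6A) is a base modification placed on nascent RNA by an enzyme complex whose catalytic subunit is METTL3, and it is mapped by MeRIP-seq, in which fragmented RNA is pulled down with an m6A antibody.

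The study profiled m6A on chromatin-associated RNA in 4 human cancer cell lines, the ovarian lines OVCAR8 and SKOV3 and the colon adenocarcinoma lines LOVO and RKO, each with METTL3 knocked down by shRNA and as a control. The control is labelled shControl in OVCAR8 and SKOV3. LOVO and RKO controls carry the genotype WT, but their peak lists are named shControl. The labels thus do not settle whether these controls held a control shRNA. The series holds 32 libraries, of which 16 are MeRIP libraries. The peak lists number 2 per group in OVCAR8 and SKOV3, 1 for each MeRIP library, and 1 per group in LOVO and RKO. No source used here says that replicates were separate cultures, so p-values measure the spread between lists, which may be technical. The lines are single established cultures, and neither the shRNA sequence nor the extent of knockdown is stated in what was used here. Input libraries were not analysed here, so the METTL3 level was not checked. A peak needs RNA as well as methylation. Less RNA, a smaller methylated share and shallower sequencing cannot be told apart from peak lists, and neither can fewer cells and less RNA per cell.

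The lists held 15484 and 15744 peaks for OVCAR8 knockdown, 28237 and 28774 for OVCAR8 control, and 26178 to 29102 for SKOV3. LOVO had 31060 in knockdown and 36242 in control, and RKO had 34015 in the list labelled knockdown and 37398 in control. The OVCAR8 knockdown lists are thus far shorter than their controls, and peak numbers per gene move with list length. Read depth is unknown.

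Several lists did not match their line labels, over all peaks. Of the peaks in the libraries labelled OVCAR8 knockdown, 95.9% overlapped a SKOV3 control peak on the same strand and 69.3% an OVCAR8 control peak. For the libraries labelled SKOV3 knockdown these shares were 56.5% with SKOV3 control and 81.9% with OVCAR8 control. In the 10 genes, 98.75% of peaks in the libraries labelled OVCAR8 knockdown overlapped a SKOV3 control peak and 84.8% an OVCAR8 control peak. For the libraries labelled SKOV3 knockdown the shares in the 10 genes were 89.8% with SKOV3 control and 87.2% with OVCAR8 control, so they did not separate the lines. Over all peaks of the list labelled RKO knockdown, 45.1% overlapped one of RKO control and 43.0% one of LOVO control, against 73.1% between LOVO knockdown and LOVO control. Of 6 colorectal marker genes, 4 had a peak in LOVO knockdown, 5 in LOVO control, 0 in the list labelled RKO knockdown, 1 in RKO control (CDX2) and 0 in every ovarian list. Of 6 ovarian markers, WT1, SOX17 and EMX2 had 0 peaks in every list. PAX8 had 0 and 0 peaks in OVCAR8 knockdown as labelled against 6 and 6 in OVCAR8 control, and 5 and 4 in SKOV3 knockdown as labelled against 3 and 3 in SKOV3 control. PAX8 also had 5 peaks in RKO control and 1 in LOVO control. MUC16 had 0 and 0 in OVCAR8 knockdown as labelled against 5 and 5 in OVCAR8 control. In SKOV3 it had 5 and 6 in knockdown as labelled against 0 and 0 in control. MSLN, with most peaks of the 6, did not separate the groups in either ovarian line. It had 4 and 7 in OVCAR8 knockdown as labelled against 5 and 4 in OVCAR8 control. In SKOV3 it had 5 and 3 in knockdown as labelled against 6 and 4 in control. Summed over the 6 ovarian markers, OVCAR8 knockdown as labelled had 4 and 7 peaks and OVCAR8 control 16 and 15, SKOV3 knockdown as labelled 15 and 13, SKOV3 control 9 and 7, and the colorectal lists 0 to 5. Groups are given as labelled, and the part of the mismatch in the values below was not tested. LOVO is the line whose 2 lists shared most with each other over all peaks.

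All 10 genes had a peak in at least 6 lists, and 8 of the 10 in every list. The exceptions were SMARCA2, with a peak in 6 lists, and SMARCD1, with a peak in 7. These counts were not made for all genes, so whether they are particular to the 10 genes was not tested. Over the 12 lists together SMARCA4 had 121 peaks, ARID1B 98, ARID1A and BICRA 75 each, PBRM1 73, SMARCC2 66, ARID2 53, SMARCC1 22, SMARCA2 21 and SMARCD1 9. Per length the order was another. The mean number of peaks per 10 kb of gene was highest in SMARCC2 (2.03), a gene of 27.1 kb. SMARCA4 followed with 0.996 and ARID1A with 0.726, and the lowest were SMARCA2 with 0.0982 and SMARCC1 with 0.0932. ARID1B, the longest gene at 435 kb (chromosome 6, 156776026 to 157210779, GRCh38.p14), had 0.188.

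**Figure D1:**
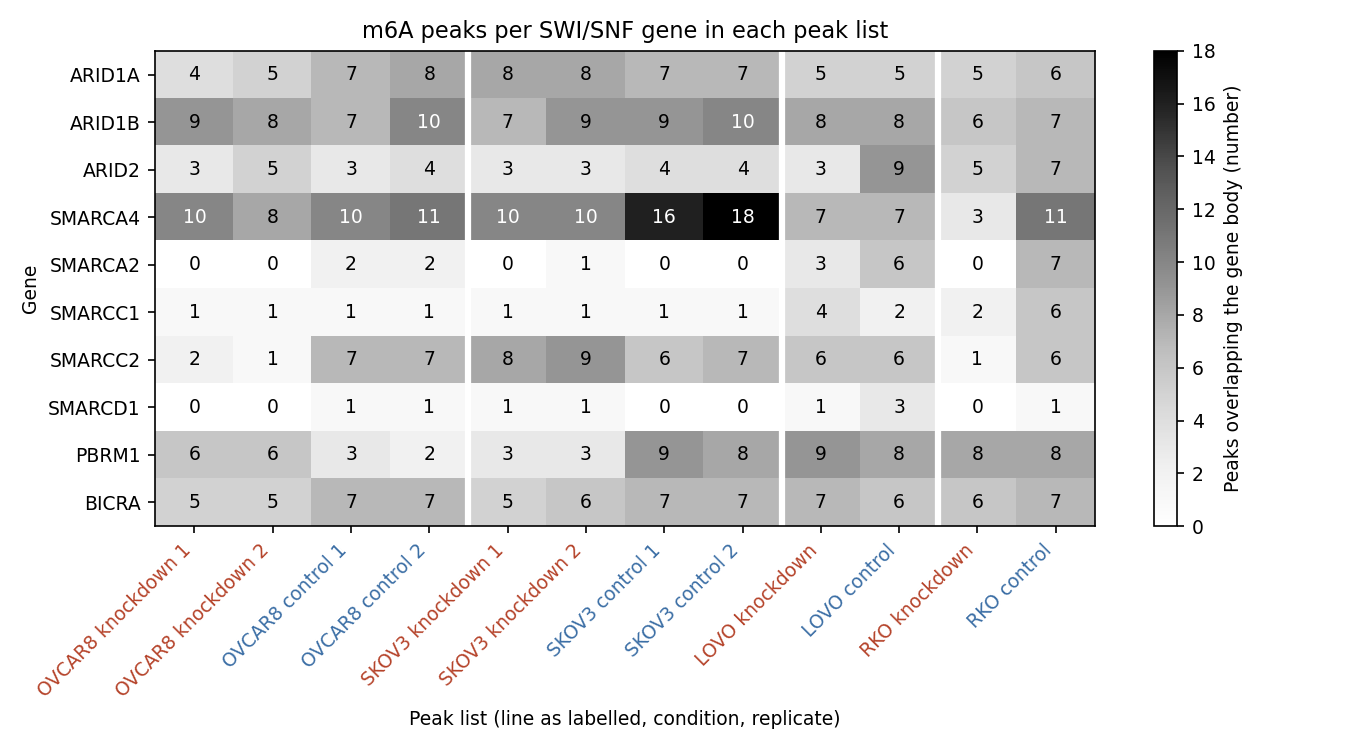
Number of m6A peaks overlapping each of the 10 gene bodies (rows) in each of the 12 peak lists (columns, knockdown left of control within each line as labelled). Grey runs from 0 to 18 peaks. SMARCA4 reaches 16 and 18 in SKOV3 control, and SMARCA2 is at 0 in 6 lists.

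The peaks of all lists merged into 97 loci in the 10 genes, of which 15 held a peak in all 12 lists and 20 in 1 list. That is 15.5% of the loci in all 12 lists, against 5.82% of the 78603 loci of all genes, given as a description. Loci in all 12 lists had a median width of 1180 bases, those in 2 to 11 lists 295.5 bases, and those in 1 list 151 bases. Width grows with the number of lists merged. Of the 97 loci, 29 had no peak in an ovarian list and 18 none in a colorectal list. A knockdown peak was missing at 27 loci and a control peak at 7. These counts, and those of single genes below, were not made for the loci of all genes. In each line the control lists were longer than the knockdown lists. More lists were ovarian than colorectal. Whether the counts are particular to these genes was therefore not tested. Of the 15 loci in all 12 lists, 2 began within 2 kb of the gene start and 5 ended within 10 kb of the gene end.

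**Figure D2:**
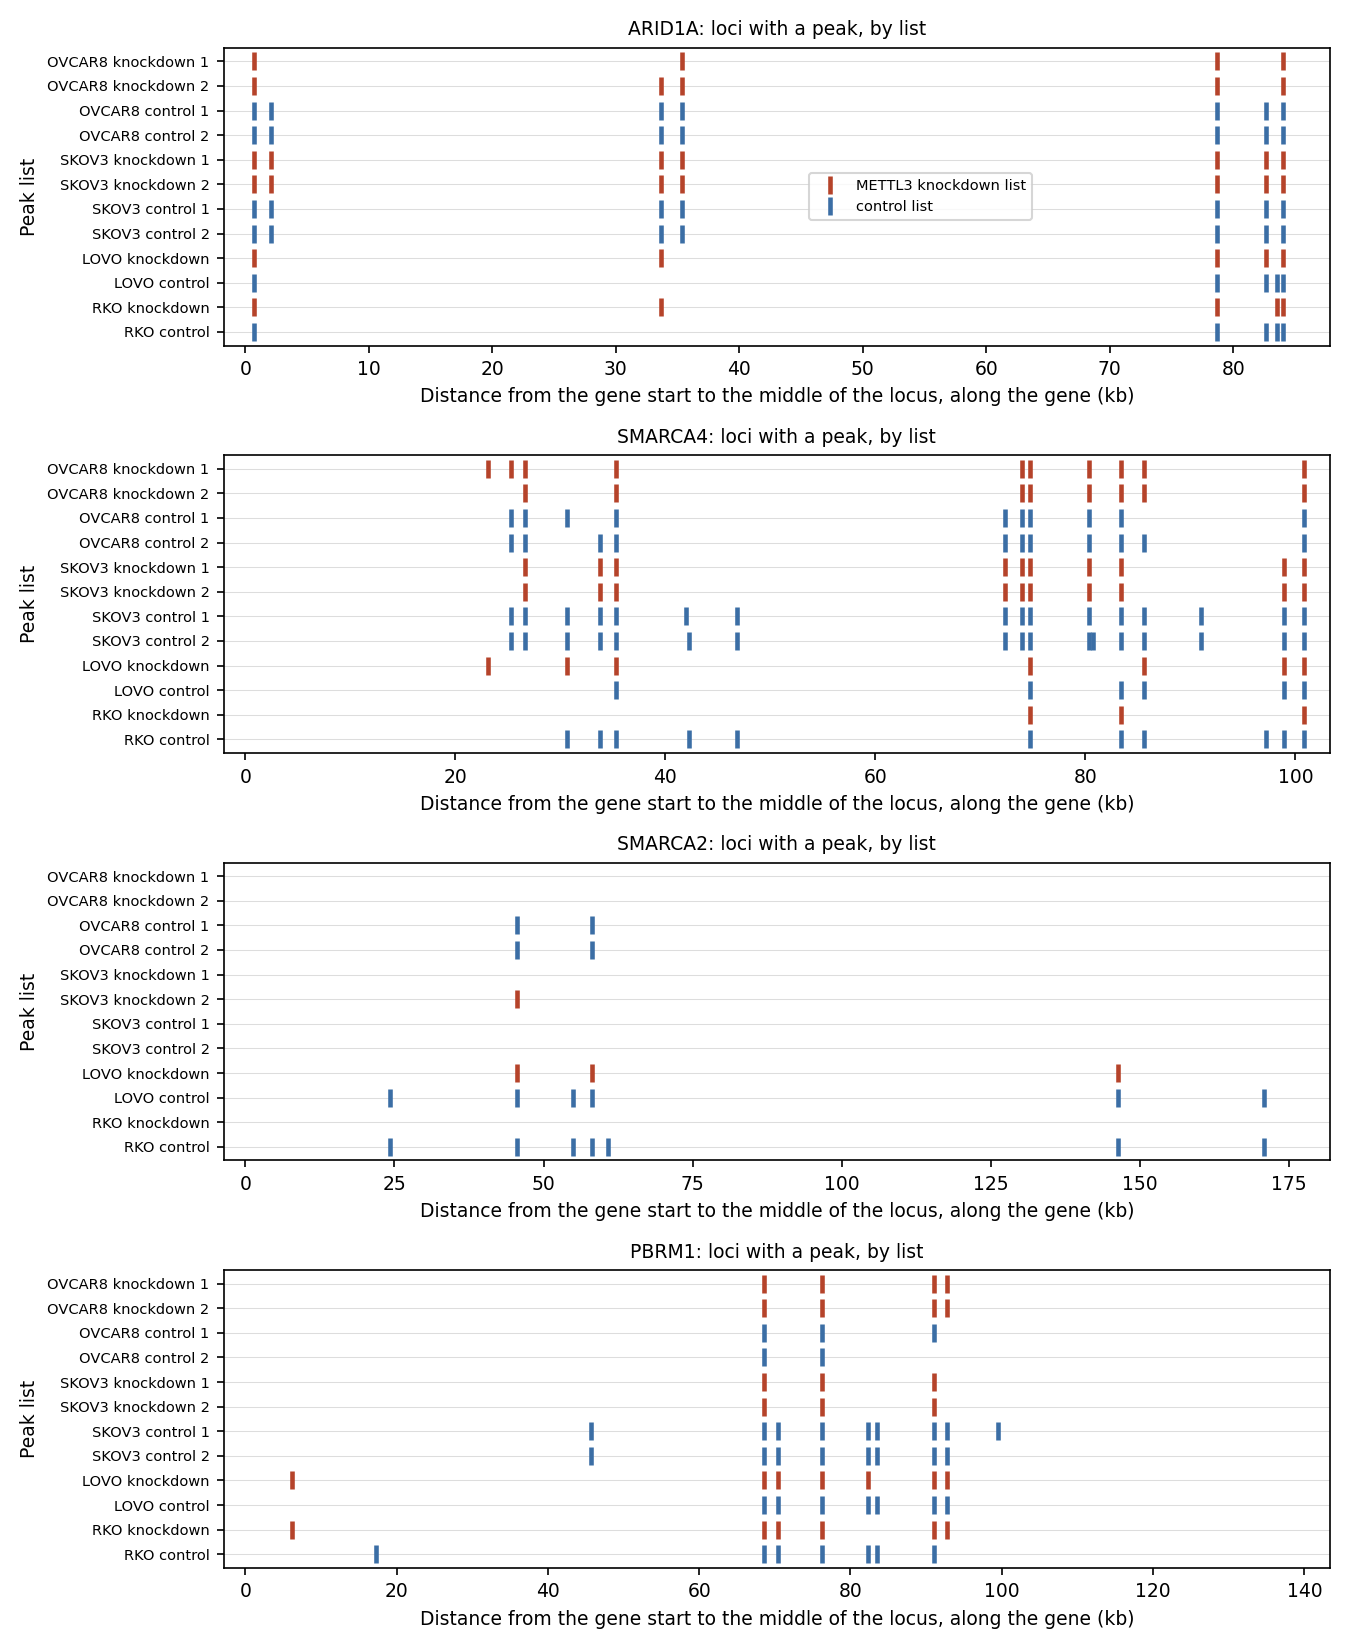
Loci with a peak in ARID1A, SMARCA4, SMARCA2 and PBRM1 by list, at the distance in kb from the gene start along the gene to the middle of the locus. Each tick is a locus with at least 1 peak in that list, in red for METTL3 knockdown and blue for control lists, with knockdown above control within each line. ARID1A keeps its first and last loci in all 12 lists, and SMARCA2 has ticks in 6 lists.

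Among the 15 loci in all 12 lists, those with the highest median strength lay at the starts of ARID1B and ARID1A, and sequence is shown for ARID1A because the peak there begins inside the promoter window in most lists. ARID1A (chromosome 1, 26696015 to 26782104, plus strand) had a locus at chr1:26695792-26697603 in all 12 lists, with a strength percentile between 69.4 and 98.7 and a median of 97.3, and the locus at its end between 79.0 and 98.6 with a median of 96.0. The strength percentile is a peak's rank within its own list, by −log10 p in the ovarian lists and by the deposited score in the colorectal ones. The locus at the ARID1B start had a median of 98.7, and both loci also lie in an uncharacterised RefSeq gene (LOC124900417 and LOC115308161), from which their peaks cannot be told apart. The window from 250 bases before to 50 bases after the start, at chr1:26695765-26696064, was entered by a same-strand peak in 9 lists, all 8 ovarian lists and the list labelled RKO knockdown. At SMARCA4 (chromosome 19, 10961030 to 11062273, plus strand) a window around a start inside the gene body, at chr19:10983874-10984173, was entered in 2 lists, both labelled knockdown (OVCAR8 replicate 1 and LOVO). Both sequences are from RefSeq on GRCh38.p14, plus strand, 5′ to 3′, and capitals mark the bases covered in every list with a peak there, 65 in ARID1A and 157 in SMARCA4.
ARID1A: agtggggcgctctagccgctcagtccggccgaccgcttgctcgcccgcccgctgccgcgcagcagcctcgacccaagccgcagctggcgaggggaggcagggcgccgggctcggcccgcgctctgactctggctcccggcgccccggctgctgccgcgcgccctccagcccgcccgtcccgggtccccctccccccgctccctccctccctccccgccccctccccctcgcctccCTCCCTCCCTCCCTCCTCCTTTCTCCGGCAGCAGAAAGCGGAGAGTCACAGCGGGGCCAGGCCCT
SMARCA4: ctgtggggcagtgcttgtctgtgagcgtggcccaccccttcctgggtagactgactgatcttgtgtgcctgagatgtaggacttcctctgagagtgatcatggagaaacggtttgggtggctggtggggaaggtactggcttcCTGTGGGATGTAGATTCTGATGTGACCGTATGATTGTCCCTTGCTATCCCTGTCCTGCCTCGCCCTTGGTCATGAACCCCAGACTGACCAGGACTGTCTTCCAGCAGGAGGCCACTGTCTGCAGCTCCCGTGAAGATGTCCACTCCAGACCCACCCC

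The letters GGACT, a common core of the m6A sequence context, were searched on the sense strand, which reads as the RNA does. They were found 0 times in the ARID1A window and 2 times in the SMARCA4 window, 1 of the 2 inside the capitals. No other motif was searched, and the ARID1A window holds GGACT 1 time on the other strand. Of 35116 promoter windows of this length, 25.3% hold GGACT on the sense strand (44.2% on either strand). The match is a description. At SMARCA4 the peak in this window stood at percentile 2.2 of its list in the library labelled OVCAR8 knockdown 1 and at 52.7 in LOVO knockdown. The ARID1B window was entered in 1 list, the one labelled RKO knockdown, by 70 bases. Of the 10 genes, 7 matched the promoter table by symbol, and ARID2, SMARCC1 and SMARCC2 are only named.

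SMARCA4 encodes the ATPase BRG1, which drives nucleosome movement in all 3 kinds of complex. It had 10 and 8 peaks in the libraries labelled OVCAR8 knockdown against 10 and 11 in OVCAR8 control, and 10 and 10 in those labelled SKOV3 knockdown against 16 and 18 in SKOV3 control. In the colorectal lines it had 7 in LOVO knockdown against 7 in LOVO control, and 3 in the list labelled RKO knockdown against 11 in RKO control. SKOV3 control stood above every other list, the groups overlapped in OVCAR8, and LOVO was level. In limma fits on log2(peaks + 1) over the 8 ovarian lists and 2695 genes, with Benjamini-Hochberg adjustment over all genes, SMARCA4 fell by 0.71 in SKOV3 (SE 0.12, adjusted p = 0.00590). The OVCAR8 difference was -0.21 (SE 0.12, adjusted p = 0.180 by limma). Scaled to equal gene peaks per list, it was 0.55 in OVCAR8, the opposite direction (limma adjusted p = 0.00902), and -0.59 in SKOV3.

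Of the 20 SMARCA4 loci, 8 had no peak in a colorectal list and 1 had none in an ovarian list. They began 22.98 kb after the gene start, and 2 were in all 12 lists, at chr19:11035330-11036193 and at chr19:11061652-11062041, 0.232 kb before the gene end. SMARCA4 was the only one of the 10 genes with a lost control region in each line, where a control region is a merged same-strand peak present in every control list of the line and lost if no knockdown peak overlaps it. SMARCA4 lost 1 of 9 control regions in OVCAR8, where 57.8% of all regions were lost, and 5 of 15 in SKOV3, where 44.4% were. It lost 2 of 7 in LOVO against 37.8% of all regions, and 8 of 11 in RKO against 60.1%. The 3 genes outside the family whose log2(peaks + 1) followed SMARCA4 most closely over the 12 lists, among 2960 genes, were PLAUR (Pearson r = 0.96), TLN1 (0.93) and DUXAP9 (0.93). These correlations are descriptions over lists that share line and list length.

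SMARCA2 encodes BRM, the alternative ATPase. It had 0 and 0 peaks in the libraries labelled OVCAR8 knockdown against 2 and 2 in OVCAR8 control, and 0 and 1 in those labelled SKOV3 knockdown against 0 and 0 in SKOV3 control. In LOVO it had 3 in knockdown against 6 in control, and in RKO 0 in the list labelled knockdown against 7 in control. Peaks were thus mostly colorectal, and lower in knockdown in OVCAR8, LOVO and RKO as labelled. Of its 7 loci, 5 had no ovarian peak and 4 no knockdown peak. All 7 control regions were lost in RKO, where 60.1% of all regions were lost. OVCAR8 lost 2 of 2, against 57.8% of all regions, and LOVO 3 of 6, against 37.8%. SKOV3 had 0 control regions. SMARCA2 was not tested by limma, since its mean over the 8 ovarian lists was under 3 peaks. The level of SMARCA2 RNA was not measured here, so a list at 0 peaks does not show that the RNA was unmethylated.

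The core subunits SMARCC1 and SMARCC2, which encode the scaffold proteins BAF155 and BAF170, differed in their peaks. SMARCC1 had 1 peak in each of the 8 ovarian lists, 4 in LOVO knockdown against 2 in LOVO control, and 2 in the list labelled RKO knockdown against 6 in RKO control. The colorectal lists ran in opposite directions, and the single ovarian peak lay at 1 locus, chr3:47730969-47731581, present in all 12 lists. SMARCC1 did not pass the filter for limma. Of its 6 loci, 5 had no ovarian peak.

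SMARCC2 had 2 and 1 peaks in the libraries labelled OVCAR8 knockdown against 7 and 7 in OVCAR8 control, and 8 and 9 in those labelled SKOV3 knockdown against 6 and 7 in SKOV3 control. In the colorectal lines it had 6 in LOVO knockdown against 6 in LOVO control, and 1 in the list labelled RKO knockdown against 6 in RKO control. The lists with few peaks were those labelled OVCAR8 and RKO knockdown, and no group overlapped in the ovarian lines. SMARCC2 fell by 1.71 in OVCAR8 (SE 0.21, limma adjusted p = 0.00145) and by 1.14 after scaling to equal gene peaks (limma adjusted p = 0.00536). In SKOV3 the difference was 0.34 (SE 0.21, limma adjusted p = 0.220). Of 66 SMARCC2 peaks 20 lay on the strand opposite to most of its peaks. On the strand of most peaks alone it had 1 and 1 in the libraries labelled OVCAR8 knockdown against 5 and 5 in control, and 5 and 6 in those labelled SKOV3 knockdown against 4 and 5 in control. There it had 4 in LOVO knockdown against 5 in control, and 1 in the list labelled RKO knockdown against 4 in RKO control. The difference in OVCAR8 was thus also present on that strand, and the SKOV3 groups overlapped there. Of 7 OVCAR8 control regions 5 were lost, where 57.8% of all regions were, and 5 of 6 in RKO, where 60.1% were. In LOVO 1 of 6 was lost, against 37.8% of all regions, and in SKOV3 0 of 5, against 44.4%. Locus chr12:56169618-56170345 was the only one of its 11 loci in all 12 lists.

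SMARCD1 encodes BAF60A, a core subunit that also contacts transcription factors. SMARCD1 had 0 and 0 peaks in the libraries labelled OVCAR8 knockdown against 1 and 1 in control, and 1 and 1 in those labelled SKOV3 knockdown against 0 and 0 in control. It had 1 in LOVO knockdown against 3 in LOVO control, and 0 in the list labelled RKO knockdown against 1 in RKO control. Nearly all of these peaks lay at 1 locus (chr12:50095602-50096449), which held a peak in 7 lists at a strength percentile of 4.66 to 43.9. It did not pass the filter for limma, and its strongest peak never reached the upper part of any list.

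ARID1A and ARID1B, the alternative DNA-binding subunits of canonical BAF, come next. ARID1A had 4 and 5 peaks in the libraries labelled OVCAR8 knockdown against 7 and 8 in OVCAR8 control, and 8 and 8 in those labelled SKOV3 knockdown against 7 and 7 in SKOV3 control. ARID1A had 5 in LOVO knockdown against 5 in LOVO control, and 5 in the list labelled RKO knockdown against 6 in RKO control. The OVCAR8 groups did not overlap, and the colorectal lists differed by at most 1 peak. Of 75 ARID1A peaks 3 lay on the opposite strand, all in colorectal lists. On the gene's strand alone it had 5 in LOVO knockdown against 4 in LOVO control. There it had 4 in the list labelled RKO knockdown against 5 in RKO control. ARID1A fell by 0.63 in OVCAR8 (SE 0.10, limma adjusted p = 0.00473), but after scaling to equal gene peaks the difference was 0.075 (limma adjusted p = 0.572), in the other direction. In SKOV3 it was 0.17 (SE 0.10, limma adjusted p = 0.229). Loci at its start, near its end (chr1:26774346-26775035) and at its end (chr1:26779038-26781002) were in all 12 lists. Of 25 control regions over the 4 lines 4 were lost, where 37.8% to 60.1% of all regions were lost by line. The region lost in LOVO lay on the opposite strand.

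ARID1B had 9 and 8 peaks in the libraries labelled OVCAR8 knockdown against 7 and 10 in control, and 7 and 9 in those labelled SKOV3 knockdown against 9 and 10 in control. LOVO had 8 in knockdown against 8 in control, and RKO 6 in the list labelled knockdown against 7 in control. The groups overlapped in both ovarian lines. Its differences were 0.016 in OVCAR8 (SE 0.19, limma adjusted p = 0.99975) and -0.23 in SKOV3 (SE 0.19, limma adjusted p = 0.361), and after scaling the OVCAR8 difference was 0.77 (limma adjusted p = 0.00963). Its locus chr6:156777358-156779470 was in all 12 lists at a strength percentile of 92.1 to 99.8. Over the 4 lines 6 of 31 control regions were lost, where 37.8% to 60.1% of all regions were lost by line.

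**Figure D3:**
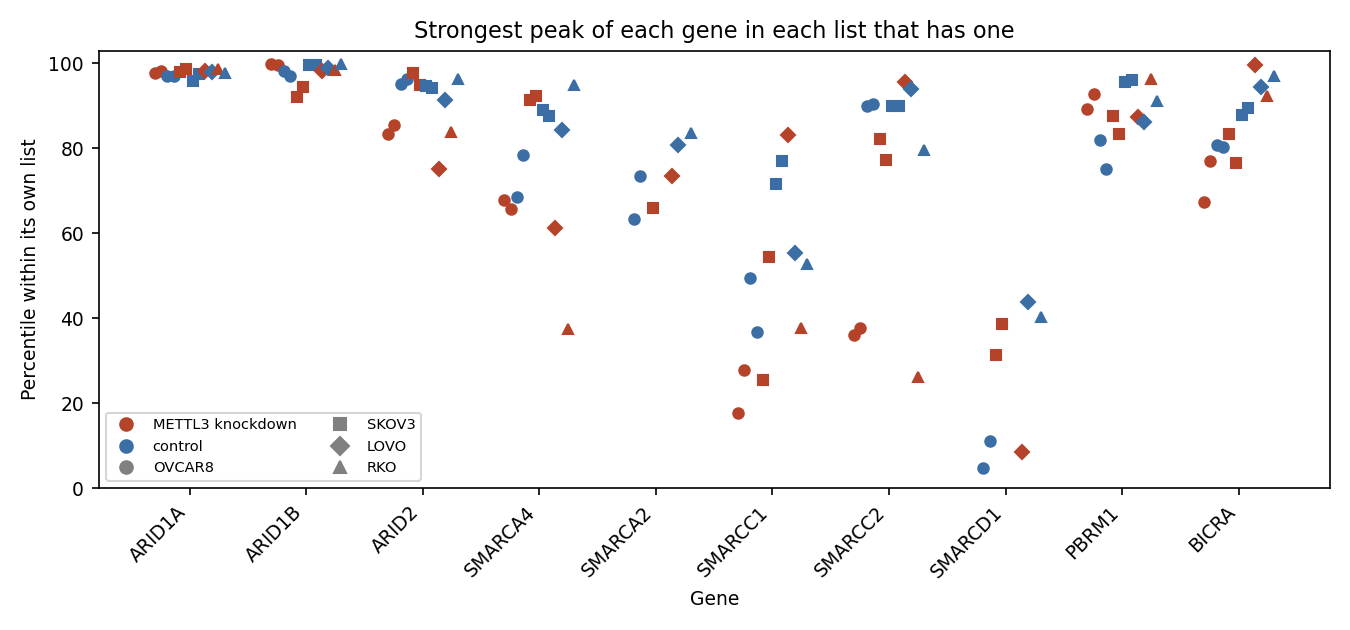
Percentile, within its own list, of the strongest peak of each gene (points, 1 per list with a peak; red knockdown, blue control; shape gives the line as labelled). Strength is −log10 p in the ovarian lists and the deposited score in the colorectal lists. ARID1A spans 95.8 to 98.7 and ARID1B 92.1 to 99.8, and SMARCD1 stays at or below 43.9.

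The strongest peak of ARID1A stood at percentile 95.8 to 98.7 of its list, that of ARID1B at 92.1 to 99.8, and that of ARID2 at 75.1 to 97.8. The ranges were 75.2 to 96.3 in PBRM1 and 67.5 to 99.6 in BICRA. SMARCA4, with the most peaks, had its lowest value at 37.6 and a median of 81.3, and SMARCC2 ranged from 26.2 to 95.6. Number and strength of peaks thus ordered the genes differently. Percentiles describe ranks within a list and are not compared between lists of different length.

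PBAF carries ARID2, a DNA-binding subunit, and PBRM1, whose bromodomains bind acetylated histones. ARID2 had 3 and 5 peaks in the libraries labelled OVCAR8 knockdown against 3 and 4 in control, and 3 and 3 in those labelled SKOV3 knockdown against 4 and 4 in control. It had 3 in LOVO knockdown against 9 in LOVO control, and 5 in the list labelled RKO knockdown against 7 in RKO control. LOVO showed the widest gap in peak number of any of the 10 genes in that line. ARID2 passed no limma test at the listed peak numbers, at 0.13 in OVCAR8 (SE 0.22, limma adjusted p = 0.628) and -0.32 in SKOV3 (SE 0.22, limma adjusted p = 0.262). After scaling the OVCAR8 difference was 0.80 (limma adjusted p = 0.0157). In bases covered in units of 300, added after seeing the data, it was -0.46, the opposite direction (limma adjusted p = 0.000568). In LOVO 6 of 9 control regions were lost, at percentiles of 12.2 to 73.6 in control, where 37.8% of all regions were lost. In RKO 5 of 7 were lost, against 60.1% of all regions. OVCAR8 lost 0 of 3, against 57.8% of all regions, and SKOV3 1 of 4, against 44.4%. A wide locus, chr12:45850048-45852883, was kept in all 12 lists. It held 2 and 3 peaks in the libraries labelled OVCAR8 knockdown against 1 and 1 in OVCAR8 control.

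PBRM1 had 6 and 6 peaks in the libraries labelled OVCAR8 knockdown against 3 and 2 in OVCAR8 control, and 3 and 3 in those labelled SKOV3 knockdown against 9 and 8 in SKOV3 control. PBRM1 had 9 in LOVO knockdown against 8 in LOVO control, and 8 in the list labelled RKO knockdown against 8 in RKO control. The ovarian groups did not overlap, with the high and low groups placed oppositely by line label. PBRM1 rose by 1.01 in OVCAR8 (SE 0.14, limma adjusted p = 0.00271) and fell by 1.25 in SKOV3 (SE 0.14, limma adjusted p = 0.00166). Both directions were kept after scaling, at 1.71 and -1.12. In OVCAR8 3 of 6 knockdown regions were gained, meaning that no control peak overlapped them (25.9% of all OVCAR8 knockdown regions were). There 0 of 2 control regions were lost, against 57.8% of all regions. In SKOV3 5 of 8 control regions were lost, against 44.4% of all regions. Loci at chr3:52609332-52610053 and chr3:52617220-52617609 were in all 12 lists.

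BICRA encodes GLTSCR1, a defining subunit of non-canonical BAF. It had 5 and 5 peaks in the libraries labelled OVCAR8 knockdown against 7 and 7 in control, and 5 and 6 in those labelled SKOV3 knockdown against 7 and 7 in control. BICRA had 7 in LOVO knockdown against 6 in LOVO control, and 6 in the list labelled RKO knockdown against 7 in RKO control. It was lower in both ovarian lines as labelled, by 0.42 in OVCAR8 and 0.30 in SKOV3. The values were -0.42 (SE 0.077, limma adjusted p = 0.00690) and -0.30 (SE 0.077, limma adjusted p = 0.0235). Scaling turned the OVCAR8 value to 0.30 (limma adjusted p = 0.0250), and left -0.19 in SKOV3 (limma adjusted p = 0.109). Without either SKOV3 control replicate the SKOV3 call was lost (limma adjusted p = 0.0911 and 0.0914). The strong locus chr19:47679569-47681900 was in all 12 lists.

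In OVCAR8, 5 of the 10 genes were lower in every knockdown than in every control list and 1 was higher (PBRM1), where 46.3% of all genes with a peak in that line were lower and 15.3% higher. In SKOV3 4 were lower and 3 higher, against 31.6% and 26.4%. In LOVO 3 were lower (ARID2, SMARCA2, SMARCD1) and 3 higher (SMARCC1, PBRM1, BICRA), against 43.1% and 25.8%. In RKO 9 were lower and 0 higher, against 46% and 36.5%, and PBRM1 was level. With 1 list per group in LOVO and RKO, a difference there has no replicate check.

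By limma 7 of the 10 genes were tested. In OVCAR8 3 fell (ARID1A, SMARCC2, BICRA) and 1 rose (PBRM1), where 52.3% of the 2695 genes tested fell and 15.5% rose (67.8% in either direction). In SKOV3 3 fell (SMARCA4, BICRA, PBRM1) and 0 rose, where 24.3% fell and 32.4% rose (56.8% in either direction). The median difference of the 7 genes was -0.21 in OVCAR8 against -0.52 over all genes tested, and -0.30 in SKOV3 against 0.11. Scaling to equal gene peaks per list moved the median of all genes to 0.16 in OVCAR8 and 0.21 in SKOV3, and the split of calls over all genes in OVCAR8 to 796 lower and 1054 higher, against 1409 and 418 as listed. Relative to that shifted median, the scaled OVCAR8 differences were -1.30 for SMARCC2, -0.084 for ARID1A, 0.14 for BICRA, 0.39 for SMARCA4, 0.61 for ARID1B, 0.64 for ARID2 and 1.55 for PBRM1. After scaling 1 of the 7 fell (SMARCC2) and 5 rose in OVCAR8, and 2 fell in SKOV3 (SMARCA4 and PBRM1) and 0 rose. Of the 2695 genes tested, 593 were lower and 966 higher in SKOV3 after scaling.

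**Figure D4:**
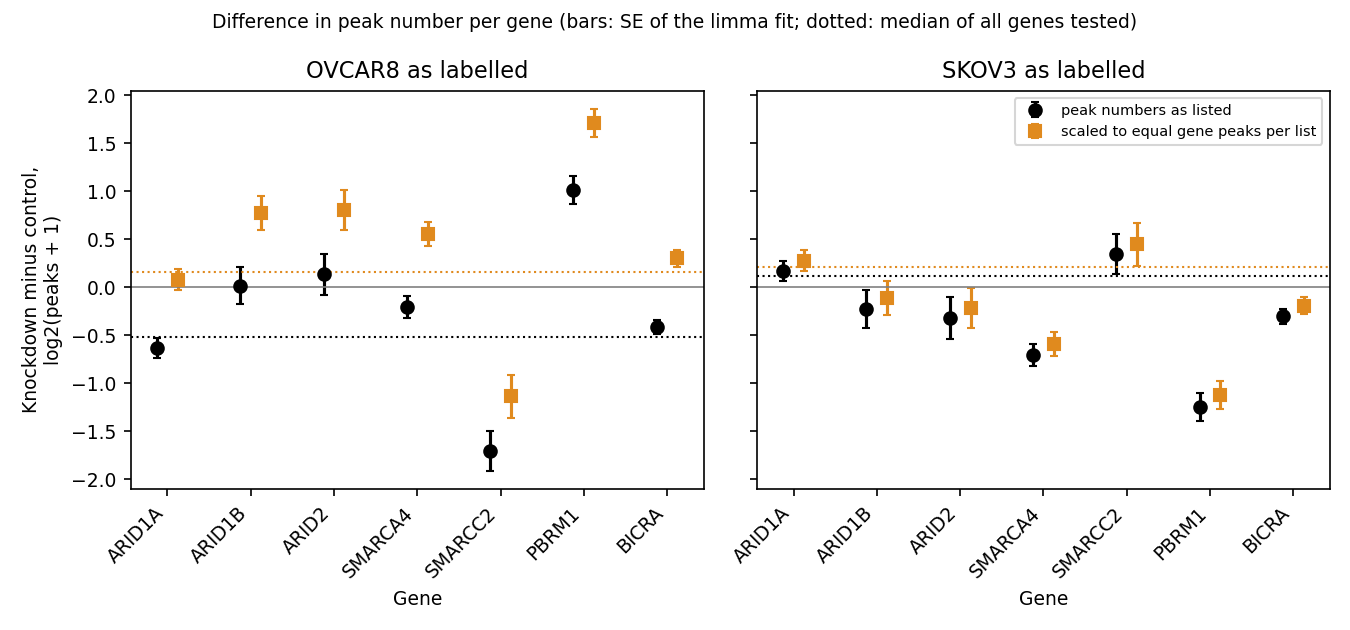
Knockdown minus control difference in log2(peaks + 1) for the 7 genes tested, in OVCAR8 and SKOV3 as labelled, with the SE of the limma fit as bars. Black circles are peak numbers as listed, orange squares are scaled to equal gene peaks per list, and dotted lines are the medians of all genes tested. SMARCC2 is low and PBRM1 high in OVCAR8 on both scales, and ARID1A, SMARCA4 and BICRA change sign there.

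The difference between the lines was tested in the same fit as the OVCAR8 difference minus the SKOV3 difference. It passed for 4 of the 7 genes, 2 lower (ARID1A at -0.80, SMARCC2 at -2.05) and 2 higher (PBRM1 at 2.26, SMARCA4 at 0.50), where 48.2% of all genes tested were lower and 22% higher (70.2% either way). The limma adjusted p was 0.000444 for PBRM1 and 0.0449 for SMARCA4. With 1 list left out, the SMARCA4 call held only without OVCAR8 knockdown replicate 2. Without each of the other 7 lists its limma adjusted p was 0.0642 to 0.132. The ARID1A difference did not hold after scaling to equal gene peaks (-0.20, limma adjusted p = 0.288). After scaling, 1 of the 7 genes passed as lower (SMARCC2) and 5 as higher (PBRM1, SMARCA4, ARID1B, ARID2 and BICRA). SMARCA4 was then at 1.14 (limma adjusted p = 0.00166), and ARID1B, ARID2 and BICRA had not passed as listed. Of the 2695 genes tested, 977 were lower and 934 higher in the scaled difference between the lines.

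Over the 4 lines together, in a two-sided exact permutation test with labels permuted within each line (smallest p possible 0.0139), 0 of 2967 genes passed an adjusted p of 0.05, and 184 (6.2%) had an unadjusted p under it. None of the 7 genes tested here was among those 184. SMARCA4 came nearest, with an exact permutation p of 0.0556 (adjusted 0.572), at a mean difference of -0.63 and fewer peaks in 3 of 4 lines. BICRA was at -0.18, also with fewer in 3 of 4, at an exact permutation p of 0.0694 (adjusted 0.572). The others were SMARCC2 at -0.79, ARID2 at -0.48, ARID1A at -0.17, ARID1B at -0.10 and PBRM1 at -0.020. After scaling to equal gene peaks the values of BICRA, ARID1A, ARID1B and PBRM1 were above 0, at 0.10, 0.11, 0.19 and 0.27. Without the RKO lists, or with labels permuted freely among the 8 ovarian lists, 0 genes passed as well (94 and 129 at an unadjusted p under 0.05).

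Over the 10 genes, 12 of 45 control regions were lost in OVCAR8 (26.7%, exact binomial 95% interval 14.6 to 41.9), where 57.8% of all regions were lost. In SKOV3 14 of 54 were lost (25.9%, 15.0 to 39.7), against 44.4% of all regions. LOVO lost 18 of 60 (30.0%, 18.8 to 43.2), against 37.8%, and RKO 39 of 66 (59.1%, 46.3 to 71.0), against 60.1%. Intervals cover counting error only, and regions of 1 gene are not independent. The share lost in the 10 genes was thus below that of all regions in OVCAR8 and SKOV3 as labelled, with the share of all regions outside the interval, and within the interval in LOVO and RKO. Whether this is particular to these genes was not tested.

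**Figure D5:**
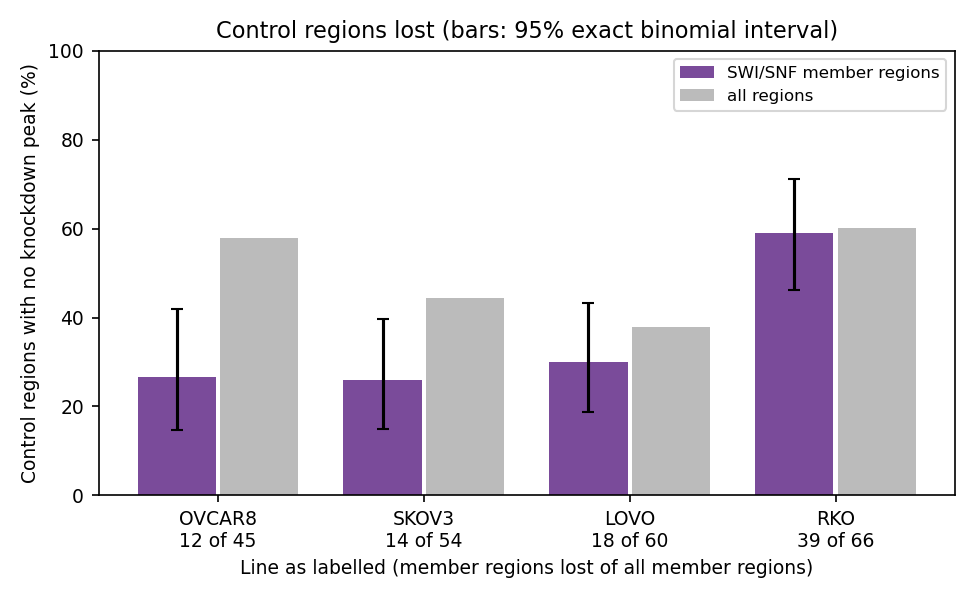
Percent of control regions with no overlapping knockdown peak, for the 10 genes (purple, with the exact binomial 95% interval) and for all regions (grey), by line as labelled. RKO is highest for the 10 genes at 59.1%, and the other lines lie between 25.9% and 30.0%.

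Lost regions were weaker than kept ones by the median. Their median control strength percentile was 37.2 in OVCAR8, against 55.5 for kept regions, and 43.0 against 67.4 in SKOV3. In LOVO it was 36.3 against 71.0 and in RKO 48.0 against 75.0. All regions showed the same order, with 44.2 against 71.2 in OVCAR8. Among regions at or above the median strength of their list, the 10 genes lost 4 of 22 in OVCAR8, against 44.5% of all such regions, and 6 of 37 in SKOV3, against 33.4%. LOVO lost 7 of 38, against 20.4%, and RKO 19 of 40, against 47.0%. Of the knockdown regions of the 10 genes, OVCAR8 gained 3 of 35, where 25.9% of all knockdown regions were gained, and SKOV3 3 of 43 (36.5%). LOVO gained 12 of 53 (26.9%) and RKO 8 of 36 (54.9%). Of the 7 gained regions in PBRM1 over the lines, 3 were in OVCAR8 and 3 in RKO as labelled, and BICRA gained 3 in LOVO.

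Among 18 other SWI/SNF subunit genes, 16 had a peak in some list and 1, BRD9, reached a mean of 3 peaks over the 12 lists. BRD9, a bromodomain subunit of non-canonical BAF, had 3 and 3 peaks in the libraries labelled OVCAR8 knockdown against 11 and 12 in control, and 5 and 5 in those labelled SKOV3 knockdown against 4 and 4 in control. It had 7 in LOVO knockdown against 4 in control, and 3 in the list labelled RKO knockdown against 6 in RKO control. BRD9 was thus lower in knockdown in OVCAR8 and RKO as labelled and higher in SKOV3 and LOVO. It fell by 1.64 in OVCAR8 (SE 0.046, limma adjusted p = 6.34e-06), and the difference between the ovarian lines was -1.91. Of 14 genes tested among 21 of other remodeller families, 11 fell and 0 rose in OVCAR8 (median -0.66). In SKOV3 1 fell and 7 rose (median 0.41). Of all genes tested, 52.3% fell and 15.5% rose in OVCAR8 (median -0.52). In SKOV3 24.3% of all genes fell and 32.4% rose (median 0.11). The 2 other remodellers with most peaks, CHD9 and EP400, fell by 0.47 and 0.78 in OVCAR8 by limma. Values scaled to equal gene peaks are not given for BRD9 and these remodellers.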

How the data were processed

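MeRIP-seq peak lists of chromatin-associated RNA were used. The submitters' processing notes name MACS2 2.2.7.1, HISAT2 2.1.0, Bowtie2 2.4.2 and Trim Galore 0.6.6, without roles, and the build hg38. The ovarian lists, deposited by the authors for each library, hold a fold enrichment (a linear ratio) and −log10 p and q per peak, per the file columns (lowest −log10 q 2.00). The colorectal lists, 1 for each group, carry a score per peak of at least 3 as deposited. Neither the meaning of this score nor the use of replicate 2 is stated there. These values are the authors' own and served only to rank or filter peaks within a list.

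Peaks on chromosomes 1 to 22 and X were counted for each RefSeq gene body (GRCh38.p14) they overlap by 1 bp, on either strand. Strand is from the promoter table, or from most peaks for ARID2, SMARCC1 and SMARCC2. Log2(peaks + 1) of genes with a mean of at least 3 peaks was fitted with limma 3.58.1 in R 4.3.3 over the 8 ovarian lists (Benjamini-Hochberg, threshold 0.05). Before this, the limma fit scaled to equal gene peaks was tried on simulated data. The fit on peak numbers as listed was not tried in that way. The 4-line test is an exact permutation. Loci are peaks merged over the 12 lists on 1 strand. Strength is a percentile within a list, from −log10 p (ovarian) or the score (colorectal).

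Groups follow the labels, and no list was moved. Members, gene lists, tests and named-gene rule (all members, other subunits with a mean of at least 3 peaks, the 2 other remodellers with most peaks, the 3 genes most like SMARCA4) were chosen with earlier results of these data known. Alternatives changed pseudocount, scaling, filter, threshold, gene assignment, overlap rule and replicates. Same-numbered replicates did not deviate together (correlations of -8.4e-05 to 0.082), so numbers were not taken as pairs. Inputs and spike-ins were not analysed here.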

Additional observations from a re-analysis of the deposited data

Results flagged for a closer look

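The knockdown minus control difference in log2(peaks + 1) differed between OVCAR8 and SKOV3 as labelled, by the limma contrast of both differences, for ARID1A (-0.80), SMARCC2 (-2.05), SMARCA4 (0.50) and PBRM1 (2.26). The lists labelled OVCAR8 knockdown shared most peaks with SKOV3 control, and the part of this in these 4 differences was not tested.

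In further pairs of lines every knockdown list differed from every control list in one direction in one line and in the opposite direction in the other. These differences were not tested. The figures are the mean difference in peaks in the first line minus that in the second. For ARID1A the value was 2 between SKOV3 and RKO. For SMARCC1 it was 6 between LOVO and RKO, and for SMARCC2 7 between SKOV3 and RKO. On the strand of most peaks alone the SMARCC2 groups overlapped in SKOV3. SMARCD1 gave -2 between OVCAR8 and SKOV3, 3 between SKOV3 and LOVO and 2 between SKOV3 and RKO, on 9 peaks in all. PBRM1 gave -6.5 between SKOV3 and LOVO. BICRA gave -3 between OVCAR8 and LOVO, -2.5 between SKOV3 and LOVO and 2 between LOVO and RKO. LOVO and RKO have 1 list per group, so any difference there counts as a direction.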

How the results depend on the processing

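Over all alternatives, 374 of the single-gene values of the 7 genes tested kept their direction and their side of the threshold. A further 16 lost the call, 18 gained one and 23 changed sign. SMARCA2, SMARCC1 and SMARCD1, which did not pass the filter, have no such values. In OVCAR8, scaling to equal gene peaks gave 0.075 for ARID1A, 0.55 for SMARCA4 and 0.30 for BICRA, and equal numbers of peaks per list gave 0.73 for SMARCA4 and 0.79 for BICRA. Bases covered in units of 300, added after seeing the data, gave -0.46 for ARID2 and 0.14 for BICRA in OVCAR8, and -0.031 for ARID1A and -0.028 for SMARCC2 in SKOV3. The ARID2 value passed the threshold (limma adjusted p = 0.000568), and that of BICRA did not (limma adjusted p = 0.346). For the OVCAR8 minus SKOV3 difference BICRA turned to 0.49 when scaled, 1.37 with equal numbers and 0.70 in bases, and ARID2 to -0.18 in bases. Scaling turned the mean over 4 lines to 0.11 for ARID1A, 0.19 for ARID1B, 0.27 for PBRM1 and 0.10 for BICRA. In OVCAR8 ARID1B was -0.069 at the stricter threshold. Leaving out 1 replicate also turned signs of uncalled values. The range was -0.21 to 0.25 for ARID1B and -0.16 to 0.42 for ARID2 in OVCAR8, and -0.072 to 0.032 for PBRM1 over 4 lines. The cause was not tested. SMARCC2 in OVCAR8 and PBRM1 in both ovarian lines kept direction and call under every alternative that tested them.

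Genes called by limma numbered 1827 in OVCAR8, 1530 in SKOV3 and 1892 for their difference. With no filter they numbered 5723, 5902 and 7491, since 13347 genes were tested, and with equal numbers of peaks 865, 852 and 941, since 1481 were. Leaving out 1 replicate gave 1523 to 1720 in OVCAR8, 1228 to 1500 in SKOV3 and 1720 to 1797 for the difference, and 0 to 0 in the 4-line permutation test. Without 1 replicate the percent of control regions lost in the 10 genes was 28.3 to 31.1 in OVCAR8, against 60.3 to 61.4 of all regions. In SKOV3 it was 29.6 to 32.2, against 46.7 to 48.0. With equal numbers of peaks it was 14.3 in OVCAR8 (3 of 21), where the share of all regions also fell, to 44.5.

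The replicate number as a block gave 1754, 1501 and 1873 calls. The only call in the 7 member genes tested that changed under the replicate block was SMARCA4 in the OVCAR8 minus SKOV3 difference (0.50, limma adjusted p = 0.0790). Read depth of the lists is unknown, so a missing peak cannot be told from shallow coverage.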
